A study of Mus musculus with 15 samples.

Results

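The 10 genes described here encode heat shock proteins and chaperones: Hspa1a, Hspa1b, Hspa8, Hsp90aa1, Hsp90ab1, Hspb1, Dnajb1, Hsph1, Hspd1 and Hspe1. They were taken by name, and all 10 were among the 12372 genes tested, out of 13940 genes with an annotated transcript in every file. Expression was measured by RNA-seq of rRNA-depleted RNA from the renal tissue of 15 male wild-type C57BL/6 mice, which were 8 weeks old at purchase and had 1 week of adaptation. The Control group (n = 5) received saline from subcutaneous osmotic pumps for 28 days, and the Ang II group (n = 5) received angiotensin II, a vasoconstrictor peptide that raises blood pressure, at 500 ng/kg/min. The Ang II + QDG group (n = 5) received the same infusion with Qingda granule (QDG), a Chinese herbal preparation, by gavage at 1.145 g/kg/day, whereas the other 2 groups were gavaged with water. These mice are called QDG mice below. QDG was not given without Ang II, so its effect in normotensive mice was not measured. The mice were numbered within a group in the order of deposit, and a number names a mouse only.

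Heat shock proteins bind unfolded or partly folded proteins and help them to fold, to be held soluble or to be degraded. In the cytosol, HSP70 proteins take up clients with the help of J-domain proteins and nucleotide exchange factors and can pass them on to HSP90, which completes the folding of kinases and steroid receptors. In mitochondria, HSP60 and its lid HSP10 form a folding chamber. Some of these genes are transcribed at a high constant rate, whereas others are switched on by heat shock factor 1 when unfolded proteins accumulate. In the kidney they are best known for their induction in tubules after ischaemia, hyperosmolality or toxic injury.

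The values are fragment counts scaled to transcript length and library depth (FPKM), summed here over the annotated transcripts of a gene, so that levels of genes of different length are on 1 scale. The implied depth was 75034700 to 81329500 fragments per mouse in Control, 70697700 to 79292100 in Ang II and 68922900 to 76143500 in QDG. Markers of the proximal tubule, thick ascending limb, distal nephron and podocyte were present in all mice. Of the 3 skeletal muscle markers none was listed, and of the 4 adrenal cortex markers Star alone was listed, at 1.45 FPKM or less. The 4 summed hemoglobin genes, which mark erythroid cells, ranged from 541 to 1350 FPKM in Control mice, from 1109 to 1936 in Ang II and from 1550 to 2801 in QDG. The adipocyte markers summed to at most 7.65 FPKM in Control mice, 21.3 in Ang II and 10.7 in QDG, and the leukocyte markers to at most 7.82 in any mouse. The smooth muscle markers ranged from 35.8 to 49.4, from 41.8 to 94.5 and from 51.7 to 59.9 FPKM, and the podocyte markers from 30.8 to 32.4, from 42.9 to 60.9 and from 37.2 to 51.7. The part of these cell types in the results was not tested. In whole tissue, fewer cells of a type and less RNA per cell cannot be told apart.

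Promoter sequences are shown first, since several members are known targets of heat shock factors. Heat shock factors bind repeats of the unit GAA and its complement TTC, spaced by any 2 bases, and the elements GAANNTTC and TTCNNGAA were searched in the RefSeq windows (GRCm38.p6) that run from 250 bases before to 50 bases after each start. Each element reads the same on both strands, and both overlap where 3 units stand in a row. Windows were found for 7 members, all but Hspa8, Hsp90aa1 and Hsp90ab1. The 7 genes had 10 windows, of which 7 held at least 1 element and 4 a run of 3 units, whereas 15.1% of all 32851 windows held an element and 0.603% a run of 3 units. These windows are not independent: the runs of Hspd1 and Hspe1 are the same bases, and the 2 windows of Hsph1 hold the same run. The 2 windows of Dnajb1 held none. In the sequences below, which read 5′ to 3′ on the strand of the gene, capitals mark the elements.
Hspa1a: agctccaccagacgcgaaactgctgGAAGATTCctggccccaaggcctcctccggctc
Hspa1b: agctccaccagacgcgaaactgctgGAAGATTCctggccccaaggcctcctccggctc
Hspb1: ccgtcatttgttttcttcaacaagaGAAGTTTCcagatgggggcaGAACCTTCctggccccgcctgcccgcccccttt
Hsph1: tgcagaTTCTGGAAAGTTCtcctca
Hspe1: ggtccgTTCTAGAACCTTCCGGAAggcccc
Hspd1: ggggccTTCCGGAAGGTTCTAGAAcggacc

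The 58 bases shown for Hspa1a (chr17:34972228-34972285, minus strand) and Hspa1b (chr17:34959310-34959367, minus strand) have the element GAANNTTC at position −104 from the start, in the same sequence. The 2 genes are neighbours with 9951 bases between them, their 300-base windows differed at 4 positions, and their coding sequences were 99.4% identical. Hspb1 (chr5:135887777-135887854, plus strand) has GAANNTTC at −117 and −97. The run of 3 units in Hsph1 (chr5:149636282-149636306, minus strand) begins 15 bases after one annotated start and lies in exon 1 of several of its transcripts. A further TTCNNGAA, not shown, lies at −54 from the same start. The run lies upstream of the start of the main transcript, Hsph1-201 (chr5:149636209, 82.3% of the FPKM of Hsph1). Hspd1 and Hspe1 are read head to head from opposite strands and overlap by 112 bases, and the sequences shown for them are the 2 strands of the same 30 bases (chr1:55088053-55088082). That stretch carries 3 overlapping elements at −89, −84 and −79 from the start of Hspe1, and lies in exon 1 of the transcript Hspd1-202 (3.44% of the FPKM of Hspd1). It lies upstream of the start of the main transcript, Hspd1-201 (chr1:55088024, 96.1%). These matches describe letters in a window, and binding of a factor was not measured.

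The members covered a wide range of levels. In Control, Hspa8 was highest at 475 ± 120 FPKM (SD, n = 5), followed by Hsp90ab1 at 407 ± 30.3, Hspd1 at 285 ± 11.2, Hspe1 at 143 ± 14.2 and Hsp90aa1 at 126 ± 20.9. The SDs of Hspa8 and Hsp90ab1 overlapped, as did those of Hspe1 and Hsp90aa1. The other members were far lower, with Hsph1 at 26.9 ± 5.71, Hspb1 at 15.8 ± 8.29, Hspa1b at 13.8 ± 12.4, Dnajb1 at 10.9 ± 1.52 and Hspa1a at 8.07 ± 5.03. The SDs of the last 4 overlapped, although within each Control mouse Hspa1b and Hspb1 both exceeded Hspa1a. Relative spread also differed: the coefficient of variation in Control was 3.93% for Hspd1 and 7.44% for Hsp90ab1, but 62.4% for Hspa1a and 90.0% for Hspa1b. In the latter 2, Control mouse 2 stood far above the other Control mice. Their coefficients were 28.2% and 43.7% in Ang II and 20.8% and 29.5% in QDG.

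**Figure D1:**
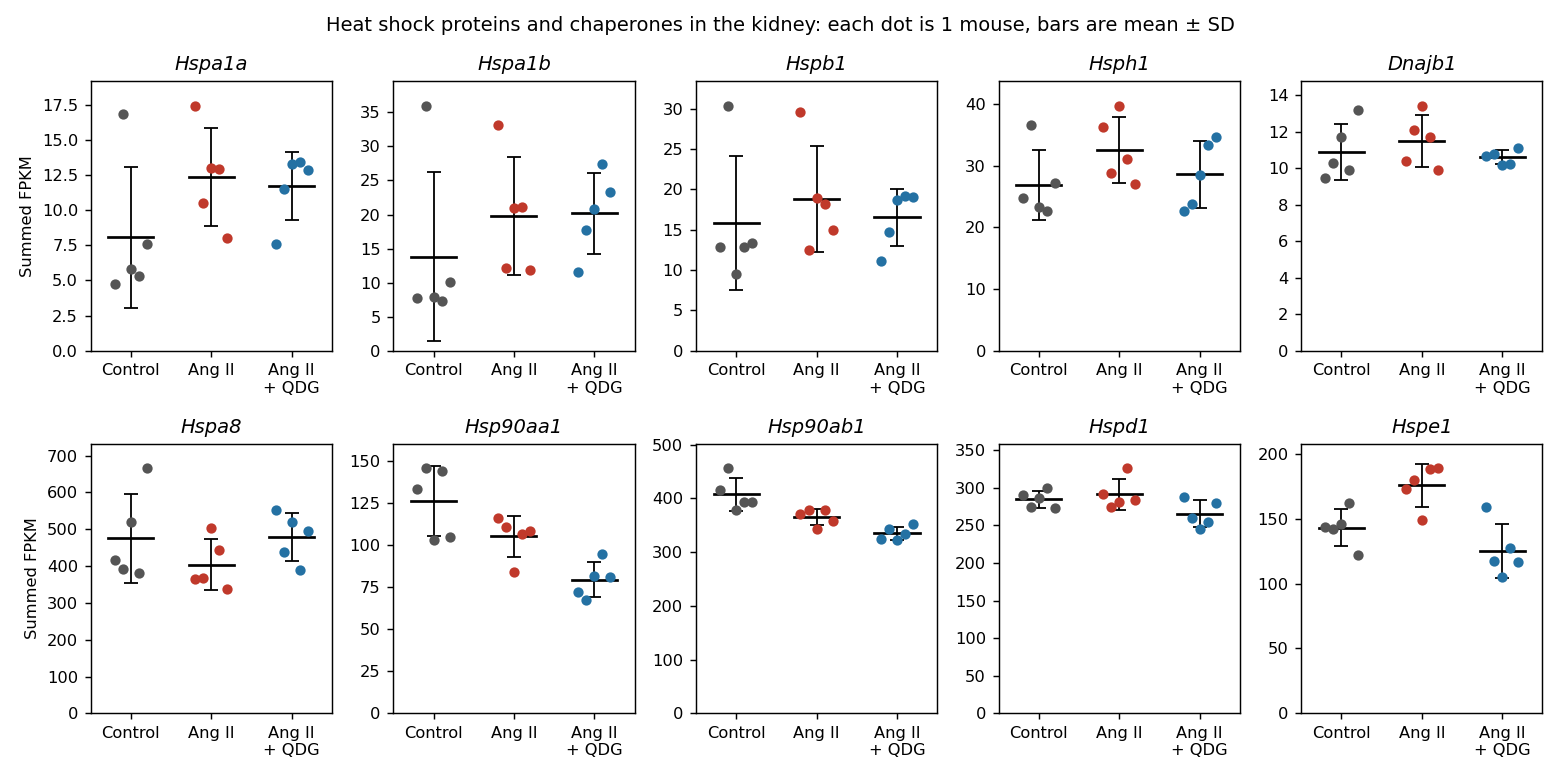
Summed FPKM (linear axis from 0) of the 10 members by group, 1 dot per mouse, with the mean and SD of 5 mice as bars. Hsp90aa1 and Hsp90ab1 step down from Control to QDG, Hspe1 is highest in Ang II, and Control mouse 2 stands above the other Control mice in Hspa1a, Hspa1b and Hspb1.

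The first question was which members differed between mice infused with Ang II and mice infused with saline. By limma on log2(FPKM + 1), 0 of the 10 members passed an adjusted p of 0.05 in Ang II vs. Control, whereas 5.94% of all genes tested did (4.95% higher and 0.994% lower). At an unadjusted p under 0.05 there were 3 members, Hspa1a and Hspe1 higher and Hsp90ab1 lower, beside 22.7% of all genes (17.9% higher and 4.83% lower). Between QDG and Ang II mice 1 member passed, Hspe1, which was lower, beside 1.81% of all genes (1.29% lower). At an unadjusted p under 0.05 there were 4 members, all lower (Hspe1, Hsp90aa1, Hsp90ab1 and Hspd1), beside 10.4% of all genes lower. In QDG vs. Control, 0 members passed, beside 0.129% of all genes, and 2 were lower at an unadjusted p under 0.05 (Hsp90aa1 and Hsp90ab1), beside 3.72% of all genes. At a fold of at least 2 with an unadjusted p under 0.05, the threshold of the study, 0 members passed in any of the 3 comparisons, beside 1.05%, 0.816% and 0.727% of all genes. The study applied its threshold to transcripts, whereas here it was applied to gene sums on log2(FPKM + 1) in limma.

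The median log2 fold change of the members was 0.17 in Ang II vs. Control, −0.13 in QDG vs. Ang II and 0.00 in QDG vs. Control, whereas the median of all genes was 0.08, −0.02 and 0.06. Of the members, 7 were higher and 3 lower in Ang II vs. Control, where 64.8% of all genes were higher, but 5 and 5 after quantile normalization or median scaling, which turned Dnajb1 and Hspd1 and took the median to 0.08. With quantile normalization the median in QDG vs. Ang II was −0.08, and with median scaling that in QDG vs. Control was −0.07. In QDG vs. Ang II, 2 were higher and 8 lower as deposited and with each of the 3 scalings tried, where 46.3% of all genes were higher as deposited. The scaling also moved the split of the calls over all genes: in Ang II vs. Control 612 genes were higher and 123 lower, 83.3% higher, compared with 45.9% after quantile normalization, 46.5% after median scaling and 78.7% with equal sums of nuclear FPKM. Between QDG and Ang II mice the share was 29%, compared with 50%, 43.3% and 29.4%, and in QDG vs. Control it was 75%, compared with 53.3%, 47.8% and 57.1%. The comparisons share mice, so a member that is high in Ang II tends to show opposite signs in the first and the second.

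**Figure D2:**
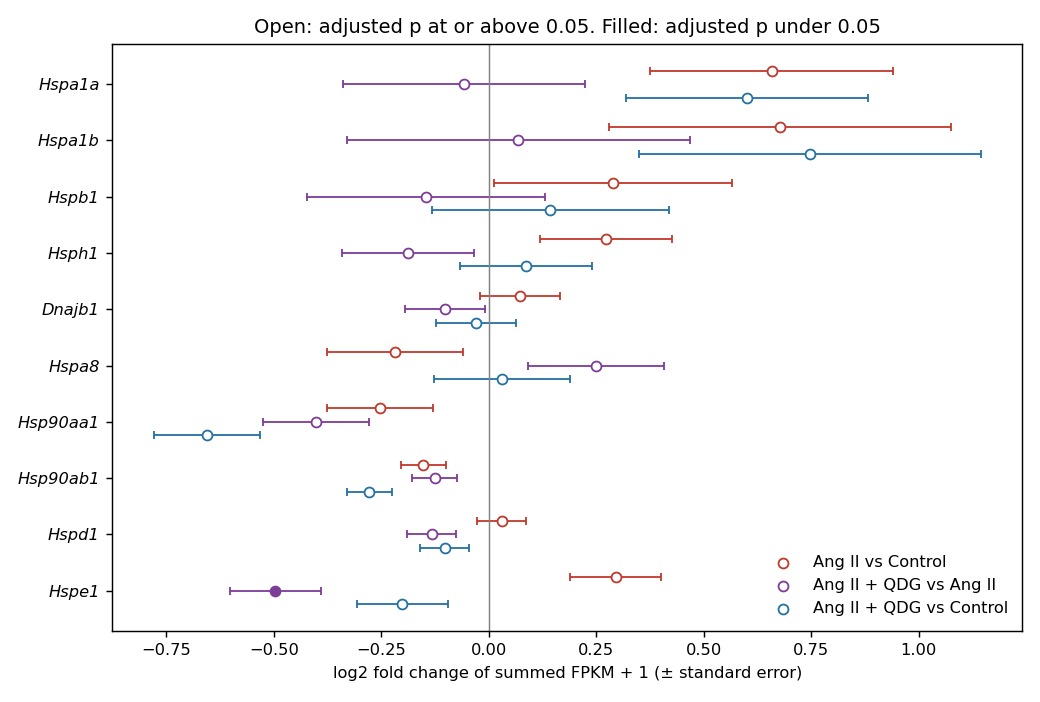
Log2 fold change (log2 axis) of each member with its standard error in the 3 comparisons, from limma on log2(FPKM + 1), 5 mice per group. Filled points have an adjusted p under 0.05, which Hspe1 in QDG vs. Ang II alone reached.

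The cytosolic HSP90 genes were lowest in the mice given QDG. Hsp90ab1, the constitutive HSP90, had 416, 456, 379, 392.5 and 393 FPKM in Control mice 1 to 5, 370, 379, 344, 378 and 359 FPKM in Ang II mice and 325, 343, 323, 333 and 352 FPKM in QDG. All Ang II mice were below all Control mice, by a narrow margin (a highest value of 378.98 against a lowest of 379.04), and all QDG mice were below all Control mice by a wider one. Such separation downwards was found for 1 of 10 members in Ang II vs. Control, beside 1.42% of all genes, and for 2 of 10 in QDG vs. Control, beside 0.857%. The log2 fold change of Hsp90ab1 was −0.15 in Ang II vs. Control (standard error, SE, of 0.05 and adjusted p = 0.101), −0.13 in QDG vs. Ang II (SE 0.05, adjusted p = 0.240) and −0.28 in QDG vs. Control (SE 0.05, adjusted p = 0.0628). With median scaling, its difference in Ang II vs. Control passed the test (log2 fold change −0.25, adjusted p = 0.00852, range over the alternatives 0.00852 to 0.198).

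Hsp90aa1, the HSP90 gene that heat shock induces, had 134, 146, 103, 144 and 105 FPKM in Control mice, 116, 111, 84.4, 107 and 108 FPKM in Ang II mice and 72.5, 67.2, 81.9, 94.8 and 81.2 FPKM in QDG. Of the Ang II mice, 4 were within the range of Control and mouse 3 was below it, and 4 of 5 QDG mice were below the lowest Ang II mouse. All QDG mice were below all Control mice. Its log2 fold change was −0.25 in Ang II vs. Control (SE 0.12, adjusted p = 0.243), −0.40 in QDG vs. Ang II (SE 0.12, adjusted p = 0.111) and −0.66 in QDG vs. Control (SE 0.12, adjusted p = 0.0628). The mean of QDG was 0.629 times that of Control, the widest ratio between groups downwards among the members.

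For both HSP90 genes the call in QDG vs. Control lay close to the threshold of 0.05. Both passed with median scaling (adjusted p = 0.0216 for Hsp90aa1 and 0.0117 for Hsp90ab1), with equal sums of nuclear FPKM (0.0478 and 0.0495) and with all listed transcripts (0.0365 and 0.0327). Over all 10 alternatives the adjusted p ranged from 0.0216 to 0.128 for Hsp90aa1 and from 0.0117 to 0.165 for Hsp90ab1. With 1 mouse left out, Hsp90aa1 passed in 4 of 15 fits and Hsp90ab1 in 2, and the adjusted p reached 0.153 for both, without Control mouse 1. Both passed without Control mouse 2 (0.0493 and 0.0407) and without Ang II mouse 3 (0.0406 and 0.0497), and Hsp90aa1 passed without Control mouse 5 (0.0335) or QDG mouse 4 (0.0457). The hemoglobin sums above had their lowest range in Control and their highest in QDG mice, and their part in this difference was not tested.

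The ratio of Hsp90ab1 to Hsp90aa1 was 3.28 ± 0.430 in Control, 3.51 ± 0.342 in Ang II and 4.28 ± 0.596 in QDG (SD, n = 5 each). The lowest ratio in QDG was 3.51 and the highest in Control 3.75, so the groups overlapped. More than 98% of the FPKM of either gene came from 1 transcript, Hsp90aa1-202 (98.9%) and Hsp90ab1-201 (99.3%). Of the 100-base windows of Hsp90aa1-202, 47.6% also occur in other genes (39.6% in Gm12346), compared with 0% for Hsp90ab1-201, so the level of Hsp90aa1 and the ratio depend on how shared fragments were assigned.

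The mitochondrial chaperonin genes, which lie head to head, held the 1 difference that passed the test. Hspe1, which encodes HSP10, had 144, 142, 146, 162 and 122 FPKM in Control mice, 173, 179.5, 149, 188 and 189 FPKM in Ang II mice and 159, 118, 105, 127 and 116 FPKM in QDG. In Ang II, 4 of 5 mice were above the highest Control mouse, and in QDG 4 of 5 were below the lowest Ang II mouse, with mouse 1 above it. Its log2 fold change was 0.30 in Ang II vs. Control (SE 0.11, adjusted p = 0.114) and −0.20 in QDG vs. Control (SE 0.11, adjusted p = 0.402). In QDG vs. Ang II Hspe1 fell by 0.50 on the log2 scale (SE 0.11, adjusted p = 0.0330), to 0.712 times the mean of Ang II.

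This call depended on single mice. Leaving out Ang II mouse 1, 2, 4 or 5, or QDG mouse 2, 3, 4 or 5, moved the adjusted p to between 0.0542 and 0.0840, whereas the call was kept in the other 7 fits that left out 1 mouse. Over those 15 fits the log2 fold change stayed between −0.59 and −0.44. The adjusted p was 0.0798 with only the 10 mice compared and 0.0887 for its main transcript alone, at log2 fold changes of −0.50 and −0.50.

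Hspd1, which encodes HSP60, had 291, 274, 287, 299 and 273 FPKM in Control mice, 292, 274, 281, 326 and 284 FPKM in Ang II mice and 288, 260, 245, 255 and 280 FPKM in QDG. Control and Ang II overlapped in 4 of 5 Ang II mice, with mouse 4 above all Control mice, and 3 of 5 QDG mice were below the lowest Ang II mouse. On the log2 scale the fold change was 0.03 in Ang II vs. Control (SE 0.06, adjusted p = 0.801), with the opposite sign after quantile normalization or median scaling and without Ang II mouse 4, and −0.13 in QDG vs. Ang II (SE 0.06, adjusted p = 0.262), or −0.04 with quantile normalization (adjusted p = 0.688).

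The ratio of Hspe1 to Hspd1 was 0.501 ± 0.0349 in Control, 0.604 ± 0.0563 in Ang II and 0.469 ± 0.0562 in QDG (SD, n = 5 each). It ranged from 0.447 to 0.540 in Control and from 0.530 to 0.666 in Ang II, so that the groups barely overlapped. The transcripts of the mitochondrial genome held 18.5% to 20.8% of the FPKM in Control mice, 15.3% to 16.0% in Ang II and 16.9% to 19.7% in QDG. With the mice rescaled to equal sums of nuclear FPKM, Hspe1 in QDG vs. Ang II had a log2 fold change of −0.49 and an adjusted p of 0.0252. The library kit of the labels does not state the strand. It is therefore not known whether fragments from the 112 shared bases could be assigned to 1 of the 2 genes. Other genes also hold 22.4% of the 100-base windows of Hspe1 and 26.9% of those of Hspd1.

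**Figure D3:**
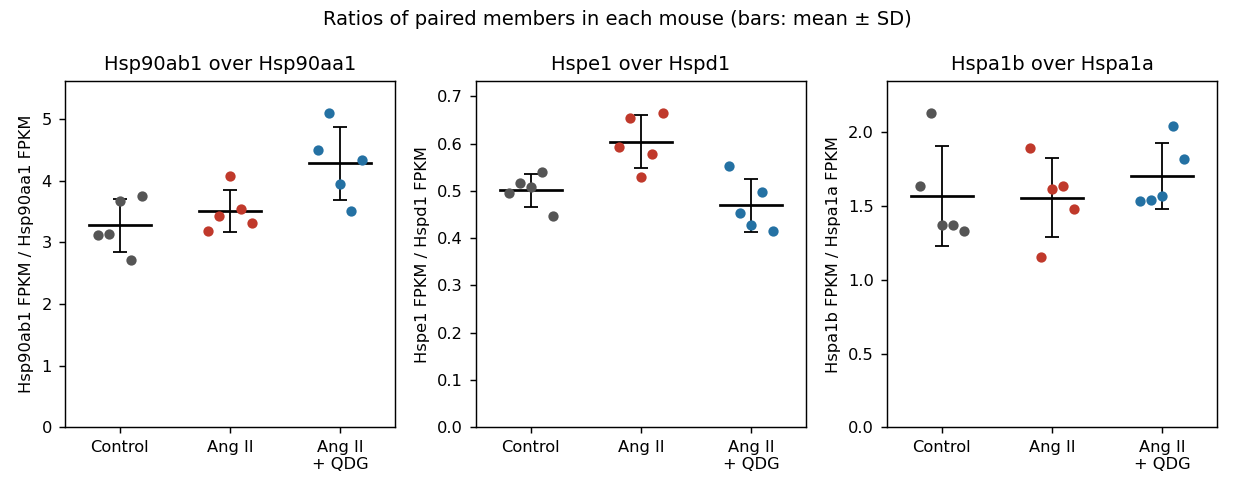
Ratio of FPKM (linear axes from 0) of Hsp90ab1 to Hsp90aa1, Hspe1 to Hspd1 and Hspa1b to Hspa1a in each mouse, with the mean and SD of 5 mice per group as bars. The first ratio is highest in QDG (mean 4.28), the second in Ang II (mean 0.604), and the third is near 1.6 in Control and Ang II (means 1.57 and 1.56).

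The inducible HSP70 genes were low and varied widely within groups. Hspa1a had 4.74, 16.9, 5.79, 5.33 and 7.61 FPKM in Control mice, 17.4, 10.5, 12.97, 12.9 and 8.02 FPKM in Ang II mice and 7.56, 11.5, 13.3, 13.4 and 12.8 FPKM in QDG. Control mouse 2 was the second highest of all 15, whereas the other Control mice were all below the lowest Ang II mouse. Hspa1b had 7.77, 36.0, 7.95, 7.32 and 10.1 FPKM in Control mice, 33.1, 12.2, 20.97, 21.2 and 11.9 FPKM in Ang II mice and 11.6, 17.8, 20.8, 27.4 and 23.3 FPKM in QDG. Here too the other 4 Control mice were below all Ang II mice.

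With all mice, the log2 fold change in Ang II vs. Control was 0.66 for Hspa1a (SE 0.28, adjusted p = 0.183) and 0.68 for Hspa1b (SE 0.40, adjusted p = 0.339). In QDG vs. Control it was 0.60 (adjusted p = 0.351) and 0.75 (adjusted p = 0.411), and in QDG vs. Ang II −0.06 (adjusted p = 0.950) and 0.07 (adjusted p = 0.957). Without Control mouse 2, the difference in Ang II vs. Control passed the test for both, at 0.94 for Hspa1a (adjusted p = 0.0219) and 1.08 for Hspa1b (adjusted p = 0.0426). The same omission gave 0.88 (adjusted p = 0.0637) and 1.15 (adjusted p = 0.0740) in QDG vs. Control. Without Ang II mouse 1, the highest of its group, the values in Ang II vs. Control were 0.53 (adjusted p = 0.322) and 0.48 (adjusted p = 0.549). Over the 10 alternatives other than leaving out 1 mouse, the adjusted p ranged from 0.178 to 0.282 for Hspa1a and from 0.330 to 0.454 for Hspa1b.

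Hspa1b exceeded Hspa1a in all mice, at a ratio of 1.57 ± 0.339 in Control, 1.56 ± 0.270 in Ang II and 1.70 ± 0.224 in QDG (SD, n = 5 each). Of the 100-base windows of Hspa1a, 47.1% occur unchanged in Hspa1b, so the division of fragments between them depends on the counting and each gene's own level is uncertain.

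Hspb1, the small heat shock protein HSP25 that binds actin and keeps unfolding proteins soluble, had 12.9, 30.4, 9.53, 12.9 and 13.4 FPKM in Control. It had 29.7, 12.5, 18.9, 18.2 and 14.9 FPKM in Ang II mice and 11.1, 14.8, 18.7, 19.2 and 19.0 FPKM in QDG. The highest mice were again Control mouse 2 and Ang II mouse 1. Its log2 fold change was 0.29 in Ang II vs. Control (SE 0.28, adjusted p = 0.583) and −0.15 in QDG vs. Ang II (SE 0.28, adjusted p = 0.846), and without Ang II mouse 1 the latter was 0.03. The value in Ang II vs. Control was 0.54 without Control mouse 2, 0.15 without Control mouse 3 and 0.12 without Ang II mouse 1. A pseudogene, Hsp25-ps1, shares 56.3% of the 100-base windows of Hspb1.

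Hsph1, the HSP110 that exchanges nucleotide on HSP70, had 24.7, 36.6, 23.3, 22.6 and 27.2 FPKM in Control mice, 36.2, 28.8, 39.7, 31.0 and 27.0 FPKM in Ang II mice and 22.6, 23.8, 28.5, 33.3 and 34.6 FPKM in QDG. The 3 groups overlapped widely. On the log2 scale the fold change was 0.27 in Ang II vs. Control (SE 0.15, adjusted p = 0.316), −0.19 in QDG vs. Ang II (adjusted p = 0.593) and 0.09 in QDG vs. Control (adjusted p = 0.840). For the main transcript, Hsph1-201, alone the first 2 values were 0.48 (adjusted p = 0.564) and −0.38 (adjusted p = 0.742). In Control mouse 1 and QDG mouse 3 a second transcript, Hsph1-211, held 16.7 and 17.5 FPKM, beside 7.63 and 10.04 for Hsph1-201, whereas Hsph1-211 was at 6.42 FPKM or less in the other 13 mice.

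Dnajb1, the J-domain partner of HSP70, was the steadiest of the lowly expressed members. It ranged from 9.44 to 13.2 FPKM in Control (median 10.3), from 9.87 to 13.4 in Ang II (median 11.7) and from 10.2 to 11.1 in QDG (median 10.6). Its log2 fold change was 0.07 in Ang II vs. Control (SE 0.09, adjusted p = 0.697), with the opposite sign after quantile normalization or median scaling. It was −0.10 in QDG vs. Ang II (adjusted p = 0.636) and −0.03 in QDG vs. Control (adjusted p = 0.919).

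Hspa8, the constitutive HSC70 that also uncoats clathrin vesicles, had 417, 391, 520, 382 and 666 FPKM in Control mice, 364, 367, 505, 444 and 337 FPKM in Ang II mice and 551, 437, 520, 389 and 494 FPKM in QDG. In Ang II, 3 of 5 mice were below the lowest Control mouse. Its log2 fold change was −0.22 in Ang II vs. Control (SE 0.16, adjusted p = 0.450) and 0.25 in QDG vs. Ang II (SE 0.16, adjusted p = 0.467). Without Control mouse 5, the highest of all, the value in Ang II vs. Control was −0.09. The main transcript, Hspa8-201, held 87.7% of the FPKM. A retained-intron transcript, Hspa8-207, ranged from 0 to 114 FPKM over the 15 mice, and Hspa8-205 was listed at 82.0 FPKM in Ang II mouse 4 and at 0 in 13 other mice. Another retained-intron transcript, Hspa8-208, holds 3 small nucleolar RNA genes (Snord14c, Snord14d and Snord14e) within its exons. Of the 100-base windows of Hspa8-201, 58.5% also occur in Gm15459.

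At the level of single transcripts, 27 transcripts of the members were listed and 19 tested. In Ang II vs. Control 0 of 19 passed an adjusted p of 0.05 in limma, beside 0.691% of all 28812 transcripts, and 6 had an unadjusted p under 0.05, beside 15.9%. Between QDG and Ang II mice the counts were 0 and 4, beside 0.0972% and 11.3%, and in QDG vs. Control 0 and 2, beside 0.0243% and 10%. The second transcript of Hspd1, Hspd1-202, which starts inside the region shared with Hspe1, had 8.56 ± 1.39 FPKM in Control mice, 12.5 ± 5.51 in Ang II and 7.90 ± 0.830 in QDG (SD, n = 5 each). Its log2 fold change was 0.44 in Ang II vs. Control (SE 0.20, adjusted p = 0.307) and −0.53 in QDG vs. Ang II (SE 0.20, adjusted p = 0.326). Ang II mouse 1 had 22.1 FPKM and the other Ang II mice at most 12.1, and without it, a setting chosen after seeing the data, the values were 0.22 (adjusted p = 0.447) and −0.32 (adjusted p = 0.369).

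Some of the members varied together from mouse to mouse, also with the means of the groups removed. Over 15 mice, 45 pairs of members were compared, and permutation tests within groups (100000 permutations, two-sided, adjusted over the 45 pairs) gave an adjusted p under 0.05 for 9 pairs by Pearson's r and for 8 by Spearman's rho. An r at least as far from 0 as in these 9 pairs (0.730) was found in 0.703% of all pairs of tested genes, given as a description since pairs share genes. All 6 pairs among Hspa1a, Hspa1b, Hspb1 and Hsph1 were among them, with r from 0.828 to 0.969. For Hspa1a and Hspa1b, r was 0.969 (adjusted p = 0.00135) and rho 0.946 (adjusted p = 0.0018) by permutation, and r was 0.928 without the 2 mice farthest from the median of Hspa1a. In each r without 2 mice, the group means removed were those of all 15 mice. The 2 mice left out thus still entered these means. For Hspa1b and Hspb1, r was 0.953 (adjusted p = 0.0036) and rho 0.921 (adjusted p = 0.00189) by permutation, and r was 0.875 without 2 mice. For Hspa1b and Hsph1, r was 0.868 (adjusted p = 0.00371) and rho 0.850 (adjusted p = 0.00189) by permutation, and r was 0.848 without 2 mice. The first pair shares sequence, as given above. Hspb1 and Hsph1 both lie on chromosome 5. Hspb1 shared 56.3% of its 100-base windows with Hsp25-ps1, and Hsph1 shared none with any gene. The part of shared sequence or position in these correlations was not tested.

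Hspa8 and Dnajb1 formed a second pair, with r = 0.811 (adjusted p = 0.0137) and rho = 0.743 (adjusted p = 0.0346) by permutation, and r = 0.605 without the 2 mice farthest from the median of Hspa8. Hsp90aa1 went the other way: its r with Hspa8 was −0.776 (adjusted p = 0.0243) and its rho −0.889 (adjusted p = 0.00624) by permutation, and r was −0.650 without 2 mice. Its r with Dnajb1 was −0.730 (adjusted p = 0.0282), but its rho was −0.696 (adjusted p = 0.0665) by permutation, and r was −0.626 without 2 mice. For Hspd1 and Hspe1, r was 0.630 (adjusted p = 0.102) and rho 0.479 (adjusted p = 0.354) by permutation, and for Hsp90aa1 and Hsp90ab1 r was 0.531 (adjusted p = 0.247) and rho 0.414 (adjusted p = 0.461).

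**Figure D4:**
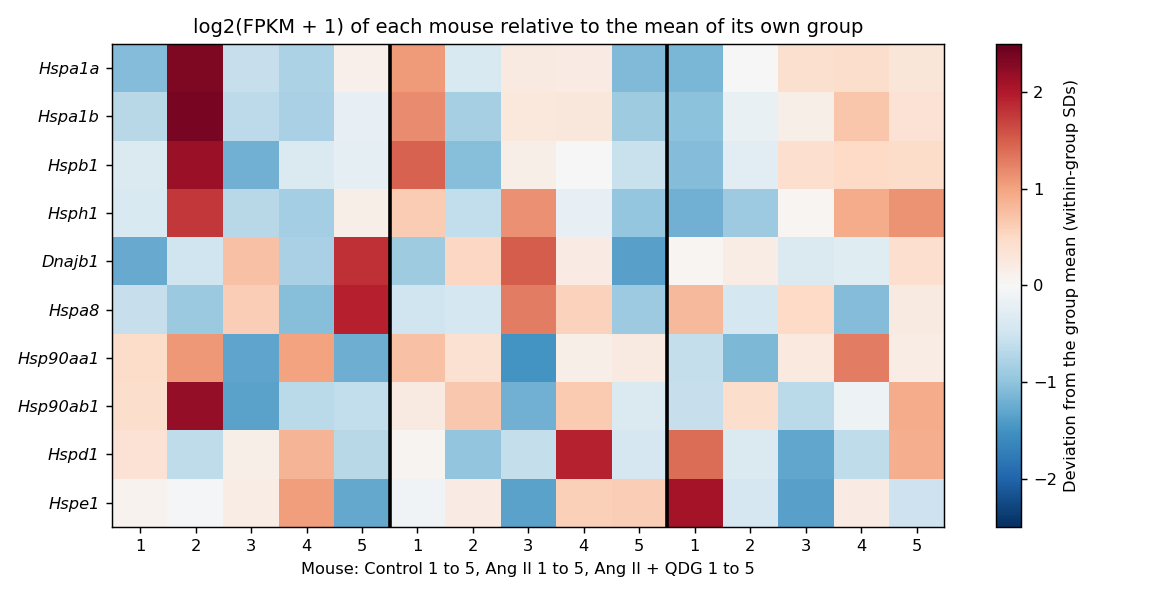
Deviation of log2(FPKM + 1) of each mouse from the mean of its own group, in units of the within-group SD of the gene, for the 10 members (rows) and 15 mice (columns, groups divided by black lines). Hspa1a, Hspa1b, Hspb1 and Hsph1 share their colours in most mice, with Control mouse 2 highest, whereas Hspa8 and Hsp90aa1 show opposite colours in most mice.

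The immediate early genes, which respond to handling and stress within minutes, summed to 55.7 FPKM in Control mouse 2, within the Control range of 49.4 to 64.2, and to 65.9 FPKM in Ang II mouse 1, the highest of its group. Of the 7 tested genes of this list, 3 passed the test higher in Ang II vs. Control (the transcription factor genes Jun and Junb, and Ier2) and 1 lower (Dusp1, a phosphatase of MAP kinases), beside 4.95% and 0.994% of all genes, and 1 passed in each direction in QDG vs. Ang II (Dusp1 higher and Junb lower), beside 1.81% in either direction. With each of the 3 scalings, 2 passed higher in Ang II vs. Control instead of 3. Their part in the spread of the HSP70 genes was not tested. As a description over 15 mice, the genes outside the list whose log2(FPKM + 1) was most like the mean standardized value of the 10 members were Zbtb9 (Pearson's r = 0.886), Leo1 (0.838), Vars (0.820), Gm9923 (0.806) and Cers2 (0.793).

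The rest of the chaperone network was read from 8 lists of 105 genes, of which 101 were tested. In Ang II vs. Control 6 passed the test, all higher (Fkbp5, Dnaja1, Pfdn6, Hspb7, Dnajc11 and Dnajb11), beside 5.94% of all genes, a share near the background. In QDG vs. Ang II 9 passed, all lower (Fkbp5, Dnaja1, Cdc37l1, Pfdn6, Dnajb11, Ahsa1, Dnajc11, Stip1 and Dnaja4), beside 1.29% of all genes lower. In QDG vs. Control 0 passed, beside 0.129%, with 4 higher and 11 lower at an unadjusted p under 0.05 in limma, beside 10.7% and 3.72% of all genes. The median log2 fold change over the 101 genes was 0.08, −0.11 and −0.01, beside 0.08, −0.02 and 0.06 for all genes. In Ang II vs. Control 71 were higher and 30 lower, but 50 and 51 with quantile normalization or median scaling, at medians of −0.0015 and −0.0090. In QDG vs. Ang II the median was −0.06 with quantile normalization, and in QDG vs. Control it was −0.08 with median scaling. With the other scalings the calls were 3 to 6 higher and 0 to 2 lower in Ang II vs. Control and 4 to 10 lower in QDG vs. Ang II.

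Hsf1, the transcription factor that drives the heat shock response, was at 6.27 ± 1.496 FPKM in Control mice, 5.83 ± 1.49 in Ang II and 5.89 ± 0.824 in QDG (SD, n = 5 each). The fold change of Hsf1 on the log2 scale was −0.09 (adjusted p = 0.793), 0.03 (adjusted p = 0.951) and −0.06 (adjusted p = 0.908) in the 3 comparisons. With every listed transcript, taken as 0 where a file does not list it, the first and the third were −0.33 (adjusted p = 0.168) and −0.29 (adjusted p = 0.313). None of the 3 tested regulators passed the test in any comparison or had an unadjusted p under 0.05. None of the 7 other HSP70 and HSP110 genes passed either. Of 6 other small heat shock proteins 1 passed, Hspb7, a gene best known from heart and muscle, which was low throughout and rose from 1.24 ± 0.226 to 2.23 ± 0.258 FPKM in Ang II, with 2.16 ± 0.383 in QDG. On the log2 scale the fold change was 0.53 in Ang II vs. Control (SE 0.10, adjusted p = 0.0138; 0.81 with a pseudocount of 0.1) and −0.03 in QDG vs. Ang II (adjusted p = 0.919). For QDG vs. Control the log2 fold change of Hspb7 was 0.50 (adjusted p = 0.0745), with all QDG mice above all Control mice, and it passed with every listed transcript (adjusted p = 0.0474).

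Of 22 co-chaperones of HSP70 and HSP90, 1 passed the test in Ang II vs. Control. Fkbp5, an immunophilin that binds HSP90 in steroid receptor complexes and is a known glucocorticoid target, ranged from 31.9 to 41.0 FPKM in Control mice, from 47.3 to 210 in Ang II and from 26.2 to 37.0 in QDG. All Ang II mice were above all others, and 6.49% of all genes had all Ang II mice above all Control mice. The log2 fold change was 1.26 in Ang II vs. Control (SE 0.28, adjusted p = 0.0227) and −1.42 in QDG vs. Ang II (SE 0.28, adjusted p = 0.0255). Both calls of Fkbp5 were lost with only the 2 groups compared (adjusted p = 0.0643 and 0.0863). Between QDG and Ang II mice 3 further co-chaperones of 22 fell: Cdc37l1, a relative of the kinase co-chaperone Cdc37, by 0.68 (adjusted p = 0.0250), Ahsa1, which stimulates the HSP90 ATPase, by 0.36 (adjusted p = 0.0409), and Stip1, which links HSP70 to HSP90, by 0.30 on the log2 scale (adjusted p = 0.0255). For each of these 3, the QDG mice were all below the Ang II mice, as for 3.44% of all genes. These calls were close to the threshold: with only the 2 groups compared the adjusted p was 0.0755 for Cdc37l1, 0.0612 for Ahsa1 and 0.0524 for Stip1, and with quantile normalization 0.0582 for Ahsa1 and 0.0610 for Stip1. Without 1 mouse, the call was kept in 10 of 15 fits for Cdc37l1, 9 for Stip1 and 3 for Ahsa1. Stip1 had 36.9 ± 2.88 FPKM in Control mice, 41.0 ± 1.63 in Ang II and 33.2 ± 1.94 in QDG.

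Among 25 other J-domain proteins, Dnaja1, a cytosolic partner of HSP70, rose from 66.6 ± 10.2 FPKM in Control to 109 ± 23.1 in Ang II and was at 65.5 ± 8.44 in QDG (SD, n = 5 each). The log2 fold change was 0.69 (SE 0.15, adjusted p = 0.0196) and −0.71 (SE 0.15, adjusted p = 0.0330) in the first and second comparison, and the groups overlapped in both. With only protein_coding transcripts, Dnaja1 had 1.17 (adjusted p = 0.0345), −0.70 (adjusted p = 0.235) and, in QDG vs. Control, 0.48 (−0.02 as deposited). Its calls were also lost with median scaling (0.0601 and 0.0562) and the second with quantile normalization (0.0525) and only the 2 groups compared (0.0755), and the second was kept in 7 of 15 fits without 1 mouse. Dnajc11, a protein of mitochondria, rose by 0.38 (adjusted p = 0.0103) and fell by 0.32 on the log2 scale (adjusted p = 0.0385), and Dnaja4 fell by 0.29 in QDG vs. Ang II (adjusted p = 0.0304). Median scaling took both calls of Dnajc11 (adjusted p = 0.0530 and 0.0810) and that of Dnaja4 (0.0628), over the 9 alternatives the adjusted p reached 0.0607 and 0.0851 for Dnajc11 and 0.0833 for Dnaja4, and without 1 mouse the second call of Dnajc11 was kept in 5 of 15 fits and that of Dnaja4 in 8. Of 14 subunits of the chaperonin TRiC and of prefoldin, Pfdn6 alone passed, at 22.4 ± 2.44, 33.9 ± 3.76 and 24.6 ± 3.45 FPKM in the 3 groups, a difference of 0.58 on the log2 scale in the first comparison (adjusted p = 0.00840) and of −0.45 in the second (adjusted p = 0.0390). The second was lost with only protein_coding transcripts (adjusted p = 0.182) and only the 2 groups compared (0.0816) and was kept in 5 of 15 fits without 1 mouse. Of 11 other mitochondrial chaperones and proteases none passed, with 2 higher in Ang II vs. Control and 1 lower in QDG vs. Ang II at an unadjusted p under 0.05, near the 17.9% and 10.4% of all genes.

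The endoplasmic reticulum chaperones were lower in QDG than in Ang II for 13 of 13 genes, as deposited and with each of the 3 scalings. The median log2 fold change was −0.28 as deposited and −0.17 with quantile normalization, whereas 46.3% of all genes were higher in this comparison and their median was −0.02. In Ang II vs. Control 9 were higher and 4 lower, at a median of 0.10 beside 0.08 for all genes, but with quantile normalization or median scaling 7 were higher and 6 lower, at a median of 0.01. In QDG vs. Control 12 were lower, at a median of −0.14 beside 0.06. A single one passed the test, Dnajb11, a partner of the HSP70 of this compartment, in Ang II vs. Control and in QDG vs. Ang II. At an unadjusted p under 0.05, 7 were lower in QDG vs. Ang II, beside 10.4% of all genes. In QDG vs. Control 3 were, beside 3.72%. Dnajb11 had 40.9 ± 3.71 FPKM in Control mice, 49.8 ± 2.07 in Ang II and 37.4 ± 2.57 in QDG (SD, n = 5 each), and the Ang II mice were above all mice of both other groups. For Dnajb11 the log2 fold change was 0.28 in Ang II vs. Control (SE 0.07, adjusted p = 0.0275) and −0.40 in QDG vs. Ang II (SE 0.07, adjusted p = 0.0148). The first of these was lost with quantile normalization (adjusted p = 0.112), median scaling (0.166) and only the 2 groups compared (0.0572), whereas the second passed in all 15 fits without 1 mouse and in all 9 other alternatives.

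**Figure D5:**
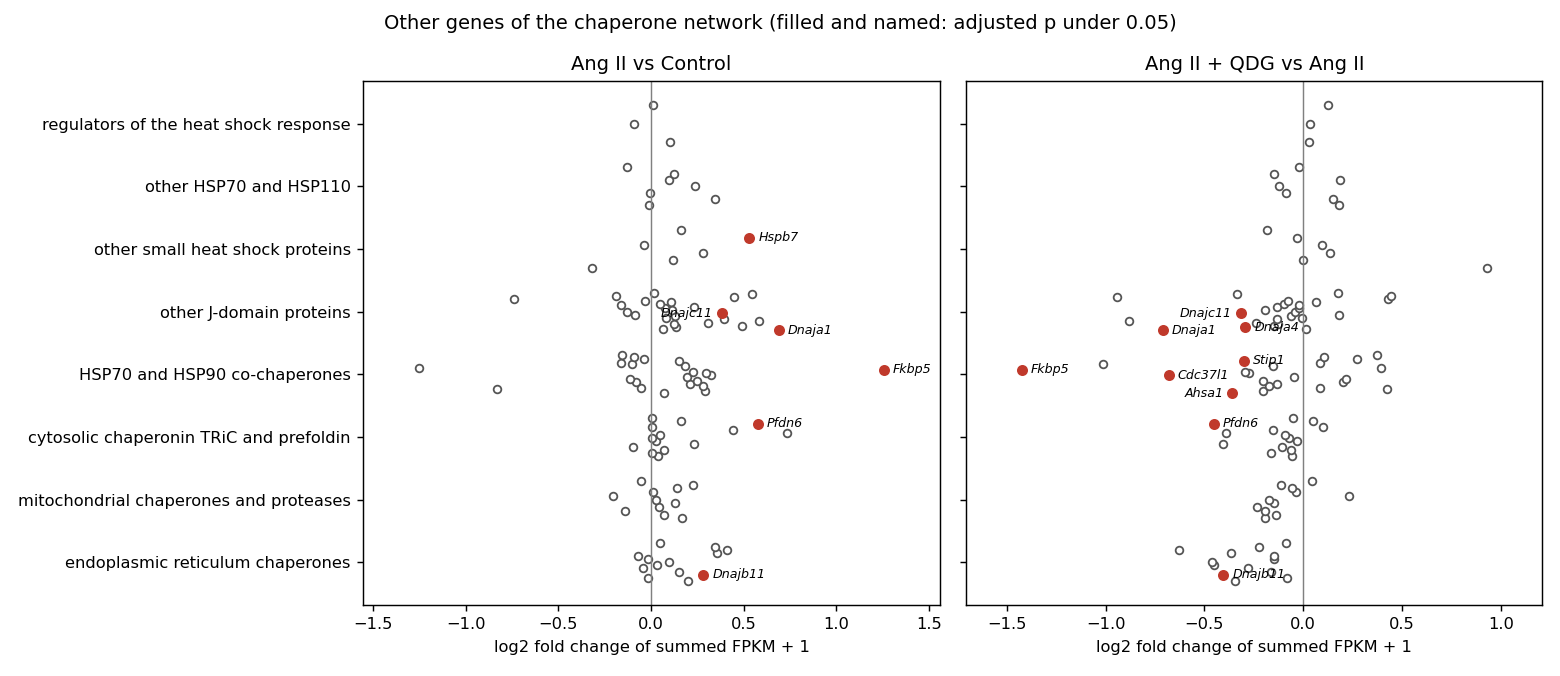
Log2 fold change (log2 axes) of the 101 tested genes of the chaperone network outside the 10 members, 1 dot per gene in rows by list, in Ang II vs. Control and in QDG vs. Ang II. Filled and named dots passed the test: 6 genes higher in the first and 9 lower in the second, among them Fkbp5 with log2 fold changes of 1.26 and −1.42.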

How the data were processed

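The authors deposited 1 FPKM value per transcript and mouse; the unit is not named in the sources used here and was taken as FPKM because, below 200 reads, 98.7% to 98.8% of values multiplied by length were whole multiples, within 0.1 read, of 1 constant per mouse. The submitters' processing notes name mm10 and limma, without a version; the aligner is not given in the sources used here. Of 31301 Ensembl transcript identifiers, 31254 matched GENCODE release 21 for mouse. FPKM of the 28871 annotated transcripts listed in all 15 files were summed per gene. Genes that reached 1 FPKM in 5 or more mice were tested with limma 3.58.1 (R 4.3.3; lmFit, eBayes with trend, two-sided) on log2(FPKM + 1), 1 mean per group over 15 mice, with Benjamini-Hochberg adjustment over all genes tested; fold changes on this scale understate those of low genes. Correlations used numpy 2.4.6, with adjustment by scipy 1.17.1. The test was checked on simulated data. The limma p-values set a difference between group means against the spread between mice. All listed genes that passed were named, with Hsf1. The members, lists and tests were chosen with earlier results of these data known. Assembled transcripts without a gene name (11141) entered only the single-transcript fit, where 7791 of 28812 transcripts were assembled. Alternatives covered the pseudocount (0.1), filter, scaling, transcripts, fit, threshold and each mouse left out.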

Additional observations from a re-analysis of the deposited data

Results flagged for a closer look

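Control mouse 2 stood apart from the other 4 Control mice in 3 members: Hspa1a at 16.9 FPKM, Hspa1b at 36.0 FPKM and Hspb1 at 30.4 FPKM. Its gap to the next Control mouse was 0.763, 0.902 and 0.814 of the whole Control range, above Dixon's critical value for 5 values. These were 3 of 30 combinations of a member and a group, of which chance flags about 1 in 20, and the 3 genes vary together, so they are not independent. The causes were not tested.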

How the results depend on the processing

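No paired analysis was possible because the labels carry no replicate numbers that groups share. Over all genes, the count of calls in Ang II vs. Control (735) was 408 with only protein_coding transcripts, 456 with only the 2 groups compared, 130 at the study's threshold (at least 2-fold and unadjusted p under 0.05) and 338 to 797 without 1 mouse. In QDG vs. Ang II (224) it was 58 with only the 2 groups compared, 101 at the study's threshold and 53 to 249 without 1 mouse. In QDG vs. Control (16) it was 80 with every listed transcript, 6 with only protein_coding transcripts, 4 with only the 2 groups compared, 90 at the study's threshold and 0 to 110 without 1 mouse. The members called were 1 in Ang II vs. Control with median scaling (Hsp90ab1) and 0 to 2 without 1 mouse, 0 in QDG vs. Ang II with only the 2 groups compared or at the study's threshold and 0 to 1 without 1 mouse, and 2 in QDG vs. Control (Hsp90aa1 and Hsp90ab1) with median scaling, equal sums of nuclear FPKM or every listed transcript and 0 to 2 without 1 mouse. The causes were not tested.

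Differences that missed the test turned sign under some settings. With quantile normalization and median scaling, the log2 fold changes of Ang II vs. Control were −0.0102 and −0.0141 for Dnajb1, −0.0631 and −0.0640 for Hspd1, and −0.0115 and −0.0239 for Ahsa1. In QDG vs. Control, Hspa8 was at −0.0401 with median scaling, −0.0639 with only protein_coding transcripts and −0.0667 as its main transcript, Dnajc11 at −0.0008 and −0.0462 with the first 2 of these, and Dnaja1 at 0.4764 with only protein_coding transcripts. Without 1 mouse, Ang II vs. Control ranged from −0.0107 to 0.0517 for Hspd1 and from −0.191 to 0.0146 for Hsf1. QDG vs. Ang II ranged from −0.1892 to 0.0791 for Hspa1a, −0.0801 to 0.2706 for Hspa1b, −0.2712 to 0.0257 for Hspb1, −0.0739 to 0.1259 for Hsf1 and −0.0879 to 0.0241 for Hspb7. QDG vs. Control ranged from −0.0390 to 0.1612 for Hspa8, −0.0738 to 0.0359 for Dnajb1, −0.1582 to 0.0191 for Hsf1 and −0.0991 to 0.0344 for Dnaja1. Of the 15 fits without 1 mouse, the calls of Ang II vs. Control were kept in 15 for Hspb7, Pfdn6 and Dnajc11, 14 for Dnaja1, 12 for Fkbp5 and 11 for Dnajb11. The calls of QDG vs. Ang II were kept in 15 for Dnajb11, 10 for Cdc37l1, 9 for Fkbp5 and Stip1, 8 for Dnaja4, 7 for Hspe1 and Dnaja1, 5 for Pfdn6 and Dnajc11, and 3 for Ahsa1.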
